A study of Mus musculus and Homo sapiens with 7 samples.

Results

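MT-ND1, MT-ND2, MT-ND3, MT-ND4L, MT-ND4 and MT-ND5 are the 6 complex I mRNAs copied from the heavy strand of human mitochondrial DNA. Their recovery with the protein EOLA1 was followed along the mitochondrial chromosome in 50-base bins. A bin was given to an mRNA when its midpoint lay inside the mRNA, which placed 117 of the chromosome's 332 bins (35.2%) in this set. The bins were chosen by position and not by count. The series places EOLA1 in mitochondria and links it to mitochondrial translation, and it also holds a guide screen in a mouse melanoma line that is not used here. The RNA came from HEK293T cells, a human embryonic kidney line, in 2 replicates, with no treatment named other than the crosslink. The cells were irradiated with ultraviolet light at 400 mJ/cm2, which joins RNA to the proteins it touches. Lysates were then precipitated with an EOLA1 antibody (UV-RIP, RNA immunoprecipitation after ultraviolet crosslinking). The marker genes of this line are nuclear, and the tables analysed hold only the mitochondrial chromosome, so the cell type was not checked by markers. No input and no control precipitation were analysed, so a level below reflects both the abundance of an RNA and its recovery with EOLA1, and these cannot be told apart.

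Heavy-strand transcription yields long precursors in which most mRNAs are flanked by tRNAs, and excision of the tRNAs releases the mRNAs. MT-ND4L and MT-ND4 stay together as 1 mRNA with overlapping reading frames. All 6 encode membrane subunits of complex I, the NADH dehydrogenase that passes electrons to ubiquinone and pumps protons. MT-ND2, MT-ND4 and MT-ND5 encode the large antiporter-like subunits of the pump, MT-ND1 lines the ubiquinone site, and MT-ND3 and MT-ND4L are small subunits of the membrane arm.

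Replicate 1 held 114188 counts and replicate 2 held 217229 over the chromosome, with a mean of 344 and 654 counts per bin. The mitochondrial ribosomal RNAs (rRNAs) took 77.4% and 67.5% of them, so that 22.6% and 32.5% were left for all other RNAs. Ratios between the replicates are therefore also given over the counts outside the rRNAs. Levels are given below as the count per bin over the mean bin of the chromosome in the same replicate. Intervals (95%) were computed from the counts and cover counting error only. The counts carry no molecular identifiers, so copies of 1 molecule cannot be told apart, and the intervals are too narrow if such copies were counted. They are also too narrow if a read was counted in more than 1 bin. The labels do not say whether the replicates came from separate cultures, so the spread between them may be technical. With 2 samples of 1 group no test of a level was made, since the smallest exact two-sided p that 2 paired values can give is 0.5.

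The 6 mRNAs together took 12820 counts in replicate 1 and 41480 in replicate 2. This was 11.2% of all counts in replicate 1 (Wilson interval 11.0 to 11.4) and 19.1% in replicate 2 (18.9 to 19.3), or 15.2% ± 5.56 (SD, n = 2). Of the counts in the 13 mRNAs they held 55.1% and 62.2%, from 51.5% of the mRNA bins. MT-ND4 alone gave 50.7% and 57.5% of the counts of the set with 23.9% of its bins. MT-ND4 thus held more counts than the other 5 members together in both libraries.

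Of the large pump subunits, MT-ND4 (chrM:10760-12137 of GRCh38.p14, 28 bins) had a level of 0.675 in replicate 1 and 1.30 in replicate 2, a mean of 0.989 ± 0.444 (SD, n = 2). It was the highest of the 13 mRNAs in both replicates. MT-ND2 (chrM:4470-5511, 21 bins) had levels of 0.263 and 0.435, a mean of 0.349 ± 0.122. MT-ND5 (chrM:12337-14148, 36 bins), the longest of the 6, had levels of 0.170 and 0.245, a mean of 0.207 ± 0.053. The values of MT-ND4 did not overlap those of either other pump subunit, and neither did those of MT-ND2 and MT-ND5.

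Among the remaining members, MT-ND1 (chrM:3307-4262, 19 bins) had levels of 0.248 and 0.316, a mean of 0.282 ± 0.048. MT-ND4L (chrM:10470-10766, 6 bins) had levels of 0.249 and 0.305, a mean of 0.277 ± 0.040. MT-ND3 (chrM:10059-10404, 7 bins) was the lowest of the 6, with levels of 0.0735 and 0.164 and a mean of 0.119 ± 0.064. In the order MT-ND4, MT-ND2, MT-ND1, MT-ND4L, MT-ND5, MT-ND3, the replicate values of MT-ND2 and MT-ND1 overlapped. So did those of MT-ND1 and MT-ND4L, whose order was reversed in replicate 1. The other neighbours in that order did not overlap. MT-ND3 was last of the 13 mRNAs in replicate 1 and in place 12 in replicate 2.

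**Figure D1:**
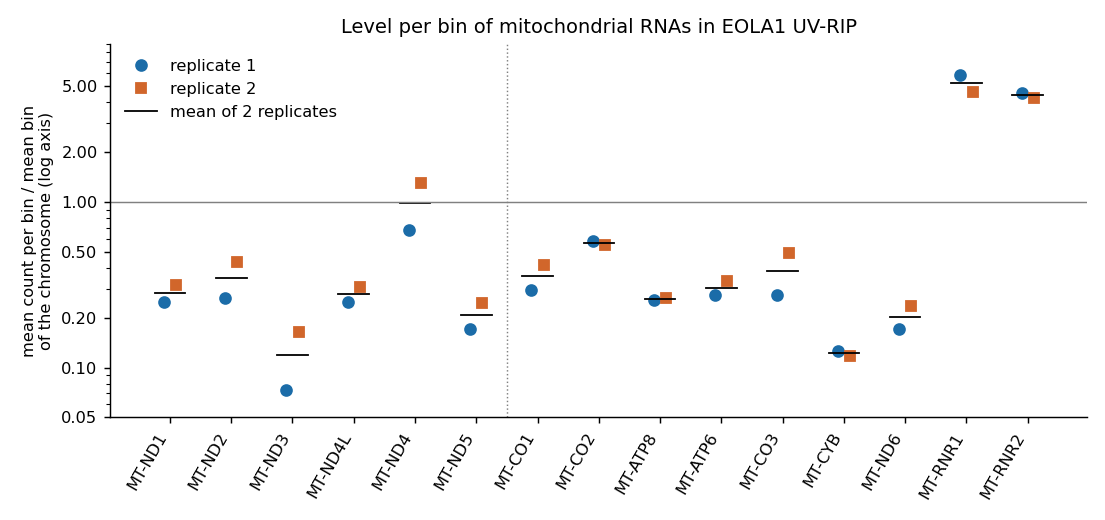
Level per bin (mean count per bin over the mean bin of the chromosome, log axis) of the 6 heavy-strand complex I mRNAs left of the dotted line, and of the other mRNAs and the rRNAs right of it. Points are the 2 replicates and bars their mean. MT-ND4, at 0.675 and 1.30, lies above every other mRNA, and MT-ND3, at 0.0735 and 0.164, is the lowest of the 6.

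The 6 mRNAs were set beside the 6 heavy-strand mRNAs of complexes III, IV and V, which share their precursor. Per bin the complex I set had 1.11 times the level of the other set in replicate 1 and 1.50 times in replicate 2. Without MT-ND4 the direction was turned, at 0.721 and 0.837 times. It was also turned with the median bin of each set in place of the mean, at 0.813 and 0.898 times. By mean level the nearest RNA outside the set, among the other mRNAs and the rRNAs, was MT-CO1 for MT-ND2 (0.349 for MT-ND2 and 0.358 for MT-CO1). For MT-ND1 it was MT-ATP6 (0.282 and 0.304), for MT-ND4L it was MT-ATP8 (0.277 and 0.261), and for MT-ND3 it was MT-CYB (0.119 and 0.122). MT-ND5 was nearest to MT-ND6, the complex I mRNA of the light strand (0.207 and 0.203). MT-ND4 was nearest to MT-CO2, which stood at 0.566, with 0.583 and 0.548 in the replicates. These matches are of level only, over 2 replicates.

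The bins of the set were mostly low on the scale of the chromosome. In both replicates, 5 of the 117 bins were above the mean bin of the chromosome, all of them in MT-ND4, beside 14.5% of all 332 bins. Against the mean of the 281 bins outside the rRNAs, 31 of the 117 (26.5%) were higher in both replicates, beside 21.7% of those 281. Among the 100 bins of the complex III, IV and V mRNAs the share was much the same, at 27%. By mRNA the 31 bins were 12 of 28 in MT-ND4, 8 of 21 in MT-ND2, 5 of 19 in MT-ND1, 4 of 36 in MT-ND5, 2 of 6 in MT-ND4L and 0 of 7 in MT-ND3. The median bin of the set had 61 and 146 counts, and the median bin of the chromosome had 67 and 157.

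Bins that were high in both replicates were found in every mRNA but MT-ND3. A high bin was taken as one with at least 2 times the median bin of its mRNA in both replicates, a rule set after the values had been seen. It gave 18 high bins of the 117, in 9 runs. The rule was applied to the 6 mRNAs only, so no share among other bins is given beside this count. High bins were not particular to the set, by the highest bin over the median bin in each replicate. This was 8.11 and 12.1 in MT-CO3, 6.51 and 9.80 in MT-ND6, and 4.22 and 5.85 in MT-CO1. It was 3.28 and 4.79 in MT-CYB and 2.76 and 2.32 in MT-CO2. In MT-ATP6 it was 2.37 and 1.71, and in MT-ATP8 1.13 and 1.58. MT-ND5 had 3 runs, MT-ND1 and MT-ND4 had 2 each, MT-ND2 and MT-ND4L had 1 each, and MT-ND3 had 0. A run could be a single bin, as it was in MT-ND2 and MT-ND4L. In replicate 1 alone 24 bins passed, and in replicate 2 alone 26.

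**Figure D2:**
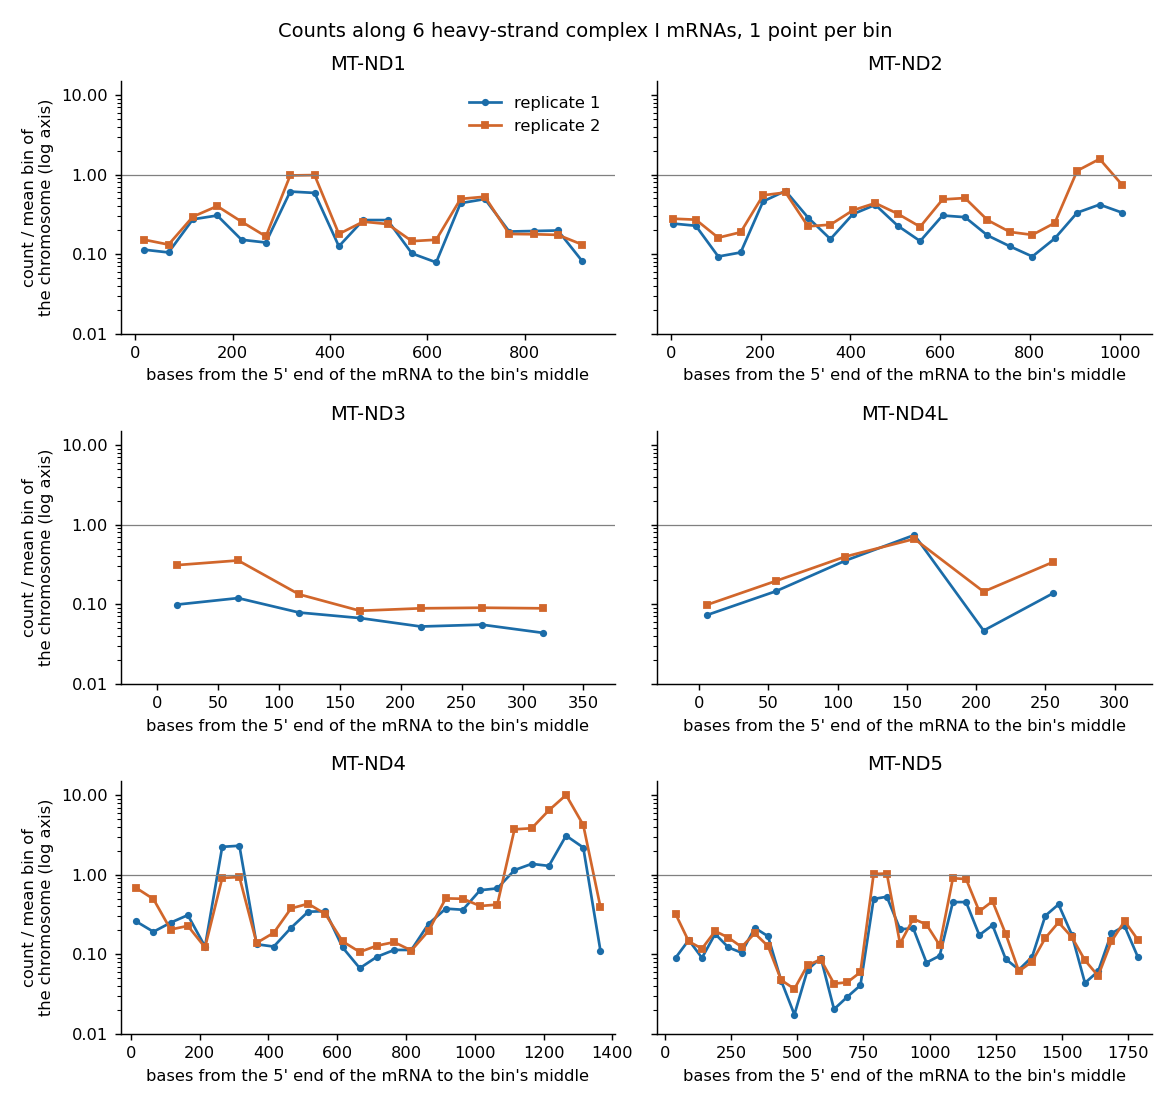
Count per bin over the mean bin of the chromosome (log axis) along each of the 6 mRNAs, against the distance of the bin's middle from the 5′ end of the mRNA in bases. Each point is 1 bin in 1 replicate. MT-ND4 has a run of 2 high bins in its 5′ part and a run of 5 near its 3′ end, where it reaches 3.11 in replicate 1 and 10.1 in replicate 2.

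MT-ND4 carried the most uneven profile. The SD over its bins was 1.24 times their mean in replicate 1 and 1.79 times in replicate 2, the highest of the 13 mRNAs in both. For the other 5 members this value lay between 0.371 (MT-ND3) and 1.06 (MT-ND4L) in replicate 1 and between 0.683 (MT-ND4L) and 1.12 (MT-ND5) in replicate 2. Its lowest bin, 11401 to 11450, had 23 and 70 counts, and its highest, 12001 to 12050, had 1068 and 6600. The ratio of highest to lowest bin was 46.4 in replicate 1 and 94.3 in replicate 2. The highest bin was the first of all 281 bins outside the rRNAs in both replicates. It belonged to a run of 5 bins from 11851 to 12100, which ended 37 bases before the end of the gene.

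Along this run near the 3′ end, replicate 1 had 394, 472, 445, 1068 and 758 counts from 5′ to 3′. Replicate 2 had 2442, 2519, 4238, 6600 and 2769. In both libraries the highest of the 5 was the bin from 12001 to 12050. The last bin of the gene, 12101 to 12150, dropped to 38 and 256 counts, and the bin after it, in the tRNA gene MT-TH, had 46 and 51. The run took 3137 counts, or 48.2% of MT-ND4, in replicate 1, and 18568 counts, or 77.8%, in replicate 2.

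The other run of MT-ND4 lay in the 5′ part of the gene, from 11001 to 11100. Its bins had 773 and 798 counts in replicate 1 and 597 and 613 in replicate 2. Replicate 2 held fewer counts there although its total was larger. The run took 24.2% of the MT-ND4 counts in replicate 1 and 5.07% in replicate 2. As a share of all counts, replicate 2 over replicate 1 was 0.405 for this run (exact interval 0.375 to 0.437) and 3.11 for the run near the 3′ end (2.996 to 3.23). The 2 runs of MT-ND4 therefore lay on opposite sides of equality between the replicates, each by more than counting error. Against the counts outside the rRNAs these ratios were 0.282 and 2.17.

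The 2 runs, 7 of the 28 bins, held 72.4% of the MT-ND4 counts in replicate 1 and 82.9% in replicate 2. The other 21 bins had a level of 0.248 and 0.297, which leaving out the highest bins had to lower. Left without their own highest runs (up to 2 each), MT-ND2 stood at 0.245 and 0.427, MT-ND1 at 0.173 and 0.202, MT-ND4L at 0.151 and 0.234, and MT-ND5 at 0.131 and 0.155. For MT-ND2 only the bin from 4701 to 4750 was left out, so its highest bin of replicate 2, from 5401 to 5450, is still in its value. Between the replicates the share of those 21 MT-ND4 bins had a ratio of 1.20 (1.13 to 1.27). By its median bin, MT-ND4 was in place 2 of the 13 mRNAs in both replicates. Its median bin lay above those of the other 5 members.

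MT-ND4L, upstream in the same mRNA, had its highest bin at 10601 to 10650, with 255 and 433 counts. This bin held 49.6% and 36.1% of the MT-ND4L counts. The bin before it had 121 and 259 counts, and the bin after it had 16 and 94. From there counts increased across the overlap of the reading frames, with 47 and 221 in the last MT-ND4L bin and 89 and 447 in the first MT-ND4 bin. No drop marked the border between the 2 reading frames in either library. The bin at the 5′ end of MT-ND4L, with 25 and 64 counts, was low in both.

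In MT-ND2 the replicates differed in which bin was highest. In replicate 1 its highest bin was 4701 to 4750, with 214 counts, and 389 in replicate 2. In replicate 2 its highest bin was 5401 to 5450, with 1027 counts, and 144 in replicate 1. The bins on either side of the 5401 to 5450 bin had 114 and 730 counts (5351 to 5400) and 114 and 486 counts (5451 to 5500) in replicates 1 and 2. Only the bin at 4701 passed the rule for a high bin in both libraries. The next bin, 5501 to 5550, which crosses into the tRNA gene MT-TW, had 54 and 85 counts, so the high stretch of replicate 2 ended at that border. The lowest MT-ND2 bin, 4551 to 4600, had 32 and 105.

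MT-ND5 had 4 of its 5 high bins in the middle of the gene. The bins from 13101 to 13200 had 171 and 182 counts in replicate 1 and 670 and 679 in replicate 2. Those from 13401 to 13500 had 156 and 156 counts in replicate 1 and 592 and 579 in replicate 2. The remaining high bin, 13551 to 13600 at the start of the 3′ part, had 80 and 304. Just upstream of the first run lay 7 bins from 12751 to 13100, at a level of 0.0440 and 0.0557. By level this was the lowest stretch of that length in the 4 longer members. Its counts ran from 6 to 31 in replicate 1 and from 24 to 56 in replicate 2, at 0.259 and 0.228 times the mean bin of MT-ND5. Against the mean bin of its own mRNA, the MT-ND4 stretch from 11301 to 11650 was lower, at 0.233 and 0.126 times. The lowest bin of all 117 was 12801 to 12850, with 6 counts (exact Poisson interval 2.20 to 13.1) and 24 counts (15.4 to 35.7). Both replicates thus had the low stretch directly before the high run.

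MT-ND1 had a pair of high runs. The bins from 3601 to 3700 had 210 and 202 counts in replicate 1 and 637 and 644 in replicate 2. The bins from 3951 to 4050 had 150 and 169 counts in replicate 1 and 323 and 344 in replicate 2. The runs held 25.4% and 19.7% of the MT-ND1 counts in replicate 1, and 32.6% and 17.0% in replicate 2. The same 3 bins were the highest of MT-ND1 in both libraries. Its lowest bin by mean share, 4201 to 4250 at the 3′ end, had 28 and 86 counts.

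MT-ND3 had its highest bins at the 5′ end. The bin from 10051 to 10100, which begins in the tRNA gene MT-TG, had 34 and 203 counts, and the bin from 10101 to 10150 had 41 and 232. The other 5 bins had 15 to 27 counts in replicate 1 and 54 to 87 in replicate 2. Its lowest bin by mean share, 10351 to 10400 at the 3′ end, had 15 and 58. The 5′ bins were the highest in both libraries, though only in replicate 2 were they at 2 times the median bin of MT-ND3. With 177 and 751 counts in all, MT-ND3 is the member with the least depth.

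The ends of the mRNAs were set beside their flanks, with the 2 bins inside each end summed and the 2 bins outside it. At the 5′ end of MT-ND1, which follows the 16S rRNA and a tRNA, the inside held 75 and 185 counts and the flank 290 and 487. At the 5′ end of MT-ND2 the inside held 161 and 359 counts and the flank 70 and 179, and at that of MT-ND3 the inside held 75 and 435 and the flank 29 and 106. MT-ND1 was thus lower than its upstream flank in both libraries, whereas MT-ND2 and MT-ND3 were higher than theirs. The MT-ND1 flank included the bin from 3201 to 3250, which was given to the 16S rRNA and had 243 and 389 counts. The bin next to MT-ND1 had 47 and 98 counts, and the first MT-ND1 bin had 39 and 99. At the 5′ end of MT-ND5 the inside held 83 and 306 counts and the flank, which lies in tRNA genes, 130 and 384. At the 3′ end of MT-ND4 the inside held 796 and 3025 counts and the flank 162 and 285. This was the largest step of any member end in both replicates, but most of it lay inside the gene. The bin from 12051 to 12100 had 758 and 2769 counts, and the last MT-ND4 bin had 38 and 256. The next bin, in the flank, had 46 and 51, so at the border itself replicate 1 did not fall. At the 3′ end of MT-ND3 the inside held 34 and 117 counts and the flank 40 and 116, close to even in both libraries. That flank included the bin from 10451 to 10500, which was given to MT-ND4L and had 25 and 64 counts. At the 3′ end of MT-ND5, which meets the light-strand gene MT-ND6, the inside held 110 and 271 counts and the flank 47 and 414, so the direction differed between the replicates.

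Each mRNA was also cut by position into 3 segments of equal length. In MT-ND4 the 3′ segment held 57.7% and 82.5% of the counts, the middle segment 10.8% and 6.76%, and the 5′ segment 31.5% and 10.7%. In MT-ND5 the middle segment held the most, 45.6% and 58.2%, as in MT-ND4L, with 73.2% and 57.7%. In MT-ND3 the 5′ segment held the most, 42.4% and 57.9%. MT-ND1 was nearly even, with 28.0% to 39.5% in every segment of both replicates. In MT-ND2 the 3′ segment held 29.5% in replicate 1, where it was the lowest, and 47.2% in replicate 2, where it was the highest.

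Per bin, the 3′ segment over the 5′ segment was above 1 in both replicates for MT-ND4 (1.83 and 7.70) and MT-ND5 (1.49 and 1.27). It was below 1 in both for MT-ND3 (0.453 and 0.269). For MT-ND1 (1.09 and 0.826), MT-ND2 (0.800 and 1.90) and MT-ND4L (0.840 and 1.64) the replicates lay on opposite sides of 1. No common slope from 5′ to 3′ was therefore seen over the 6 mRNAs. With the 4 last over the 4 first bins, MT-ND2 was above 1 in both replicates (1.86 and 4.10) and MT-ND5 was not (1.10 and 0.785).

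**Figure D3:**
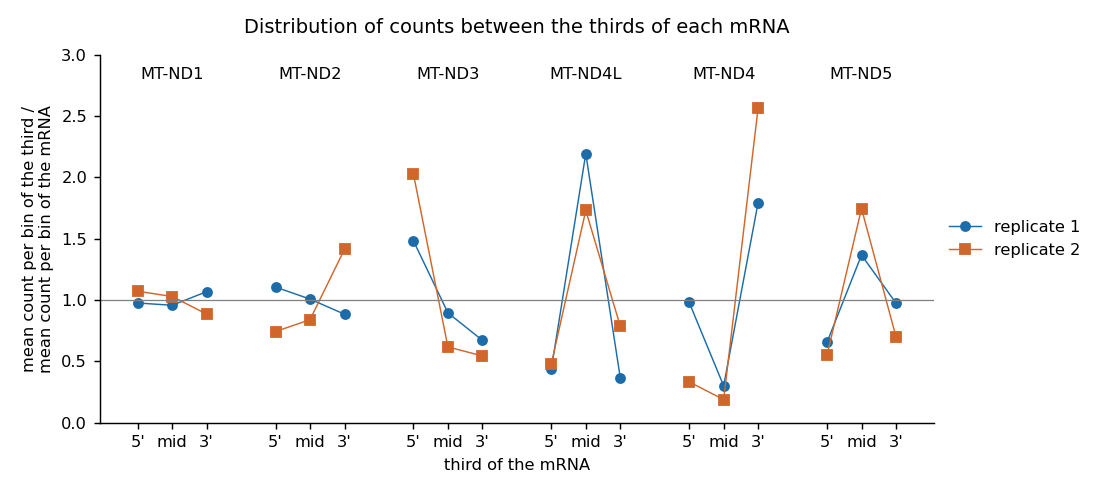
Mean count per bin of the 5′, middle and 3′ segments of each mRNA over the mean count per bin of that mRNA, in both replicates. Values above 1 mark the segments with more than an even part of the counts. The 3′ segment of MT-ND4 is at 1.80 and 2.57, the middle segment of MT-ND5 at 1.37 and 1.75, and the 5′ segment of MT-ND3 at 1.48 and 2.03.

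Counts of the 117 bins were ranked much alike in both libraries, with a Spearman correlation of 0.874 and a Pearson correlation of log2 counts of 0.887. Without MT-ND4 the Spearman value was 0.859 over 89 bins. Within single mRNAs it lay between 0.775 (MT-ND3, 7 bins) and 0.932 (MT-ND1, 19 bins), with 0.834 for MT-ND5 (36 bins), 0.876 for MT-ND4 (28 bins), 0.886 for MT-ND4L (6 bins) and 0.924 for MT-ND2 (21 bins). MT-ND2 had the lowest Pearson correlation of log2 counts of the 6, 0.801, so its bins kept much of their order while the sizes at the 3′ end differed. For comparison, the Spearman value was 0.909 and the Pearson value of log2 counts 0.900 over the 100 bins of the complex III, IV and V mRNAs. Bins are not independent replicates, as they share libraries and neighbours can share reads. Of the 10 highest bins of the set, 5 were shared between the replicates, and of the 20 highest, 16. In replicate 1, 9 of the 10 were in MT-ND4 and 1 in MT-ND4L. In replicate 2, 5 were in MT-ND4, 2 each in MT-ND2 and MT-ND5, and 1 in MT-ND1.

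As a share of all counts, every member was higher in replicate 2. The ratio of replicate 2 over replicate 1 was 2.23 for MT-ND3 (exact interval 1.89 to 2.64), 1.93 for MT-ND4 (1.88 to 1.98) and 1.65 for MT-ND2 (1.57 to 1.74). It was 1.44 for MT-ND5 (1.37 to 1.51), 1.27 for MT-ND1 (1.20 to 1.35) and 1.23 for MT-ND4L (1.10 to 1.36). Taken over the counts outside the rRNAs, the ratio stayed above 1 for MT-ND3 (1.55), MT-ND4 (1.34) and MT-ND2 (1.15). It was 1.00 for MT-ND5 (0.953 to 1.05), and below 1 for MT-ND1 (0.887) and MT-ND4L (0.854). The direction of the difference between replicates in MT-ND1 and MT-ND4L thus depended on whether the rRNAs were counted in the total.

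Bin by bin, the share in replicate 2 was higher in 87 of the 117 bins (74.4%) and lower in 30, beside 63.8% higher among the 329 bins above 0 in both replicates and 70.5% among the 278 of these outside the rRNAs. The median ratio was 1.35 over the 117 bins and 1.26 over the 278. In 21 of the 117 bins (17.9%) the share in replicate 2 was at least 2 times that in replicate 1, beside 12.5% of the 329. These were 7 bins of MT-ND4, 6 of MT-ND5, 3 each of MT-ND2 and MT-ND3, 2 of MT-ND4L and 0 of MT-ND1. In 2 of the 117 bins, both in the 5′ run of MT-ND4, it was at most 0.5 times, beside 4.86% of the 329. The lowest ratio of the set, 0.404 in the bin 11051 to 11100, and the highest, 5.01 in the bin 11951 to 12000, both belonged to MT-ND4.

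**Figure D4:**
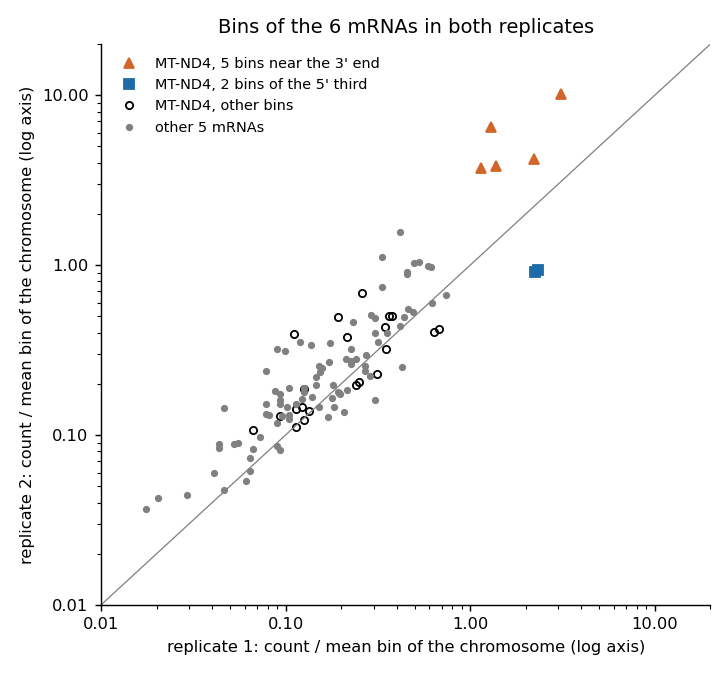
Count over the mean bin of the chromosome in replicate 2 against replicate 1 for the 117 bins (both axes log); the line marks equality. The 5 bins near the 3′ end of MT-ND4 lie above the line and the 2 bins of its 5′ run below it.

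Some neighbouring bins held nearly the same count. Of the 5 runs made of 2 bins, 3 in replicate 1 and 4 in replicate 2 had bins that differed by at most 5%, with 156 and 156 counts at 13401 to 13500 of MT-ND5 in replicate 1. These runs were chosen for being high on both sides. Over all 111 pairs of neighbours within an mRNA, 11 pairs in replicate 1 (9.91%) and 16 in replicate 2 (14.4%) were that close. What a count stands for (reads, fragments or bases) is not given in the sources used here, and whether 1 read added to 2 bins was not tested. Whether strands were kept apart is not given either, so transcripts of the opposite strand cannot be told apart from these mRNAs. The nuclear genome carries copies of mitochondrial genes, and how reads that match both were treated is not given in the sources used here.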

How the data were processed

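The submitters' processing notes list the human build GRCh38.p14 and, without versions, the trimmer Trim Galore, the aligner STAR and Picard; how each was set is not given in the sources used. The deposited UV-RIP tables hold raw whole-number counts for 332 bins of the mitochondrial chromosome (16569 bases), 1 table per replicate, without a header. Bins are 50 bases, the last 19. They are given here with the first base as 1.

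The positions of the 6 mRNAs came with the definition of the set. Those of the other mitochondrial genes were entered by hand from the standard human mitochondrial map, as no human annotation was used here. For the same reason base composition and sequences are not reported.

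Computed were shares of counts with Wilson intervals, levels per bin, segment means, ratios of shares with exact binomial intervals, and correlations across bins as descriptions (Python 3.11.15, pandas 2.3.3, scipy 1.17.1). No count model was fitted, as there is 1 group of 2 samples. Known levels were placed in simulated counts and read back with the functions that assign bins and segments. The same functions placed the levels, so the assignment itself was not tested. Alternatives were other bin assignments, denominators, medians, segment cuts, leaving out the highest bins, MT-ND4 or each replicate.

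All 6 members were named, and per mRNA the bin with the highest mean share, the next 2 where it has at least 10 bins, and the lowest; other bins were chosen after their values were seen. The members, lists and comparisons were chosen with earlier results of these data known.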

Additional observations from a re-analysis of the deposited data

How the results depend on the processing

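Assigning to the mRNAs only the bins wholly inside them, or splitting counts by overlap, moved the combined share and each level by less than the spread between replicates. Other choices moved more. Outside the rRNAs the combined share was 54.1%, the levels were 0.876 for MT-ND1, 1.06 for MT-ND2, 0.351 for MT-ND3, 0.863 for MT-ND4L, 2.96 for MT-ND4 and 0.636 for MT-ND5, and the ratios of replicate 2 over replicate 1 were 0.887, 1.15, 1.55, 0.854, 1.34 and 1.00 in the same order of mRNAs. With the median bin over the chromosome's median bin the levels were 0.873, 1.20, 0.360, 0.918, 1.56 and 0.602, and the 6 mRNAs stood at 0.856 times the complex III, IV and V mRNAs. Without MT-ND4 that value was 0.779 and the combined share 6.82%. Without its highest bin MT-ND4L had a level of 0.192. Without the 2 highest runs of each mRNA (chosen after seeing the data, as were the settings without MT-ND4 and the ratios outside the rRNAs) the level was 0.187 for MT-ND1, 0.273 for MT-ND4, 0.143 for MT-ND5 and, with its only run left out, 0.192 for MT-ND4L. The last 4 over the first 4 bins gave 0.756 for MT-ND1, 2.98 for MT-ND2, 9.89 for MT-ND4 and 0.944 for MT-ND5, where the segments gave 0.961, 1.35, 4.77 and 1.38. By single replicates the highest bin began at 3601 or 3651 in MT-ND1 and at 4701 or 5401 in MT-ND2, and at the same position in the other 4 mRNAs. The causes of these shifts were not tested. The Spearman correlation over the set moved by less than 0.05 under the 4 alternatives run. The planned comparison with base composition was not run. No paired analysis was possible because the UV-RIP has 1 group. Depth limits MT-ND3 and the lowest MT-ND5 bins most.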
